A study of Mus musculus with 3 samples.

Results

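Kdm1a encodes the lysine demethylase LSD1, and it is the gene that carries the floxed allele in the mothers of these embryos. It was described here as an interval of 53001 bases on chromosome 4 of mm9, with the gene on the minus strand. This is 1 region, set beside 15564 windows of 10 kb on chromosome 4 and 272592 such windows on nuclear sequence in all. The interval was given by position and not by its coverage. Luzp1, a neighbour on the plus strand, reaches into the 3′ part of Kdm1a in the annotation.

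LSD1 is a flavin-dependent amine oxidase that takes methyl groups off histone H3, and it works inside corepressor complexes that also hold CoREST proteins and histone deacetylases. Oocytes load its messenger RNA and protein, and in the mouse an embryo made from an oocyte without the gene fails early in development. The transcript found at the 2-cell stage can be a maternal store or a product of the embryo's own genome, and RNA coverage alone does not separate them.

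The data come from 2-cell embryos at embryonic day 1.5, in 1 group of 3 libraries, each made from a litter. Every mother was LSD1 FL/FL, which means that both copies carry loxP sites, and was negative for ZP3::Cre, the transgene that would drive recombination in growing oocytes. No litter was thus from an oocyte with a Cre-deleted gene, and each embryo had 1 floxed copy from its mother and 1 copy from its father. The labels name the fathers as wild type CB6 males in one field and as C57/Bl6J in another, on a mixed background. Which exons the loxP sites flank is not given in the labels, nor is the number of embryos in a litter. Embryos of a litter were lysed together, and their RNA was amplified by SPIA, which makes many DNA copies of each RNA at a constant temperature. In such bulk samples fewer cells with the transcript and less transcript in each cell cannot be told apart.

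The litters had 34014013, 32431630 and 40474940 nuclear alignments, in the order of litters 1 to 3. An alignment is an ungapped placement of 72 bases, recovered from the deposited coverage. RPKM is the number of alignments per kb and per 1000000 nuclear alignments. The mitochondrial chromosome held a further 26.3% to 30.4% of all alignments. The 3 libraries are the only replicates, and the exact sign-flip test used here cannot give a p below 0.25 with 3 of them.

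An annotation of mm9 was not used here, so exons were placed by the coverage, a step chosen after seeing the data. The lengths and spacings of the exons of Kdm1a-203, a full-length coding transcript in GENCODE M21, were laid along the coverage at 40818 places, and each place was scored by the sum, over exons 2 to 18 and litters, of log2(1 + distinct starts of alignments wholly inside the exon). Exons are counted here from the 5′ end. One place gave a score of 129.8, the next best place more than 200 bases away gave 107, and the median was 21.8. Scoring all 19 exons moved the place by 1 base. At this place the transcript ran from base 136106455 to base 136158638 of chromosome 4 in mm9, inside the interval. The transcript is 3008 bases long. Of 57 pairs of an exon and a litter, 48 had an alignment here and 29 at the next best place. The coverage itself chose this place, so the level of the exons as a set is a description, and an insertion or deletion between builds inside the gene was not tested.

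**Figure D1:**
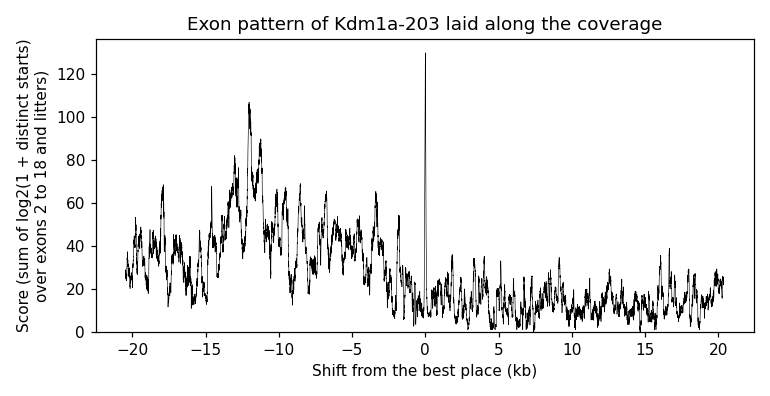
Score of the exon pattern of Kdm1a-203 (vertical axis, sum of log2(1 + distinct starts) over exons 2 to 18 and 3 litters) at each shift along chromosome 4 in mm9 (horizontal axis, kb from the best place). The best place reached 129.8, and the highest score elsewhere was 107.

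The 5 exon sequences below were picked after their values were seen, to show what the reads could and could not see. They are printed 5′ to 3′ on the minus strand of chromosome 4, from the GENCODE M21 transcripts (GRCm38), and capitals mark bases covered in all 3 litters at the placed position. The first is the 60-base exon that Kdm1a-202 holds between exons 2 and 3 of Kdm1a-203, and it is shorter than an alignment. The others are the exons of Kdm1a-203 with the lowest and the highest mean level among exons 2 to 18, the shortest exon and the coding part of the last exon.
Kdm1a-202 exon 3: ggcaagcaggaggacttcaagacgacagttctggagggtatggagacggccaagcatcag
Kdm1a-203 exon 3: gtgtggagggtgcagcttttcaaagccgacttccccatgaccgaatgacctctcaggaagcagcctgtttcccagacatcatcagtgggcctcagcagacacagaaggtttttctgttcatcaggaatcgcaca
Kdm1a-203 exon 6: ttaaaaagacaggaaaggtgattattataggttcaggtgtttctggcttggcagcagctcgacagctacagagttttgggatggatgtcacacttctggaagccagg
Kdm1a-203 exon 12: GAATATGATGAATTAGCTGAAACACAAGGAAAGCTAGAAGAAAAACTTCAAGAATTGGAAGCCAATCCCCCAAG
Kdm1a-203 exon 19, coding part: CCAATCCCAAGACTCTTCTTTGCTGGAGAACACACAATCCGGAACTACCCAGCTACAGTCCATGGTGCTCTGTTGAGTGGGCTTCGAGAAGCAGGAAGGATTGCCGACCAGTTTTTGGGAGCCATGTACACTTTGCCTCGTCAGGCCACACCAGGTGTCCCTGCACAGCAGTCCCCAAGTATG

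Kdm1a was covered in every litter. The interval held 2057, 1412 and 2684 alignments in litters 1 to 3, from 937, 1035 and 1457 distinct start positions. Its density was 1.14, 0.821 and 1.25 RPKM, with a mean of 1.07 ± 0.223 RPKM (SD, n = 3). The level was lowest in litter 2. Coverage reached 13.4%, 17.7% and 13.8% of the interval's bases in litters 1 to 3, against 2.66%, 3.53% and 2.49% of the bases of chromosome 4.

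The mean density placed the interval at percentile 94.2 of the 10 kb windows of chromosome 4. Only 903 of 15564 windows had a higher mean, the median window had 0.00308 RPKM, and 30.7% of windows had no alignment in any litter. By litter, the interval stood at percentile 94.6, 92.6 and 94.8. Of the 6 windows that overlap the interval, 1 reached 1 RPKM in all litters, and 3.69% of all windows on chromosome 4 did. That window, from 136100001 to 136110000, had 8.70, 4.26 and 4.18 RPKM in litters 1 to 3, but only 4001 of its bases lie in the interval and the rest lies beyond the 3′ end of Kdm1a, toward Luzp1. The other 5 windows had means of 0.0785 to 1.04 RPKM. The lowest of these, at percentile 78.5, holds the 5′ end.

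**Figure D2:**
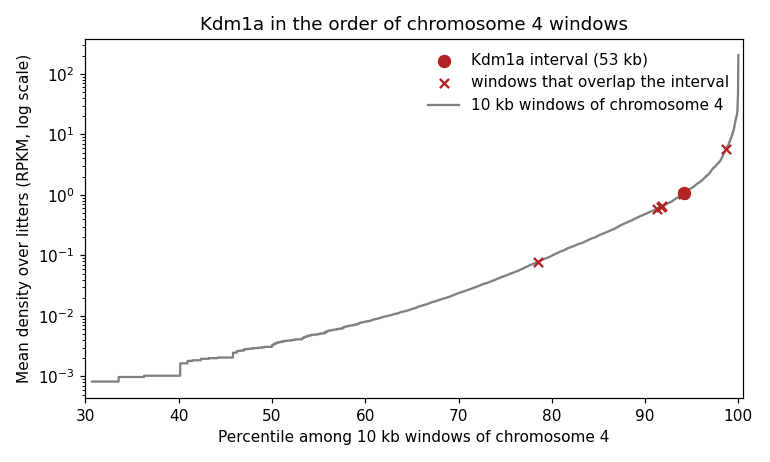
Mean density over 3 litters (vertical axis, RPKM, log scale) against the percentile among 10 kb windows of chromosome 4 (horizontal axis). The Kdm1a interval (circle) lies at percentile 94.2 with 1.07 RPKM, and the 6 windows that overlap it (crosses) lie at percentiles 78.5 to 98.7.

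Most alignments inside Kdm1a exons lay in the last exon, which holds the end of the coding sequence and the 3′ untranslated region. Exon 19 is 494 bases long, with 183 coding bases and 311 untranslated ones. It held 1340, 320 and 992 alignments in litters 1 to 3. The share of all exon alignments that fell in exon 19 was 87.4%, 64.1% and 77.4% in litters 1 to 3.

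Because a 72-base ungapped alignment cannot cross a splice junction, the level of an exon was taken per kb of start positions that leave room for a whole alignment. On this scale exon 19 had 93.1, 23.3 and 57.9 RPKM in litters 1 to 3, against 6.96, 6.77 and 8.34 RPKM over exons 2 to 18. The litters were close over exons 2 to 18 and far apart in exon 19. The last exon exceeded exons 2 to 18 by 13.4, 3.44 and 6.95 fold, a mean log2 ratio of 2.76 ± 0.977 (SD, n = 3). It was higher in 3 of 3 litters, with p = 0.25 in an exact permutation test that flips signs (two-sided), the smallest that 3 litters allow. This comparison was chosen after seeing the data. Distinct starts filled 88.9%, 48.7% and 74.7% of the 423 start positions of exon 19, against 16.6%, 16.2% and 21.6% of the 815 start positions of exons 2 to 18. On distinct starts the mean log2 ratio was 1.93 ± 0.436.

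Within exon 19 the litters had different shapes. Mean coverage over the 100 bases next to the 3′ end was 120, 21.3 and 116 reads per base in litters 1 to 3. Over the next 100 bases it was higher, at 267, 48.9 and 274. Over the bases farthest from the 3′ end, from 401 to 494, it was 148, 43.0 and 33.4, so litter 3 was the lowest there. The 1 kb beyond the 3′ end held 110, 0 and 0 alignments. Reads carry no strand, so transcripts of Luzp1 that overlap this end would be counted with Kdm1a. The last exon of the annotated Luzp1 transcript that ends inside Kdm1a is 277 bases long and was touched by 0, 15 and 0 alignments in litters 1 to 3.

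**Figure D3:**
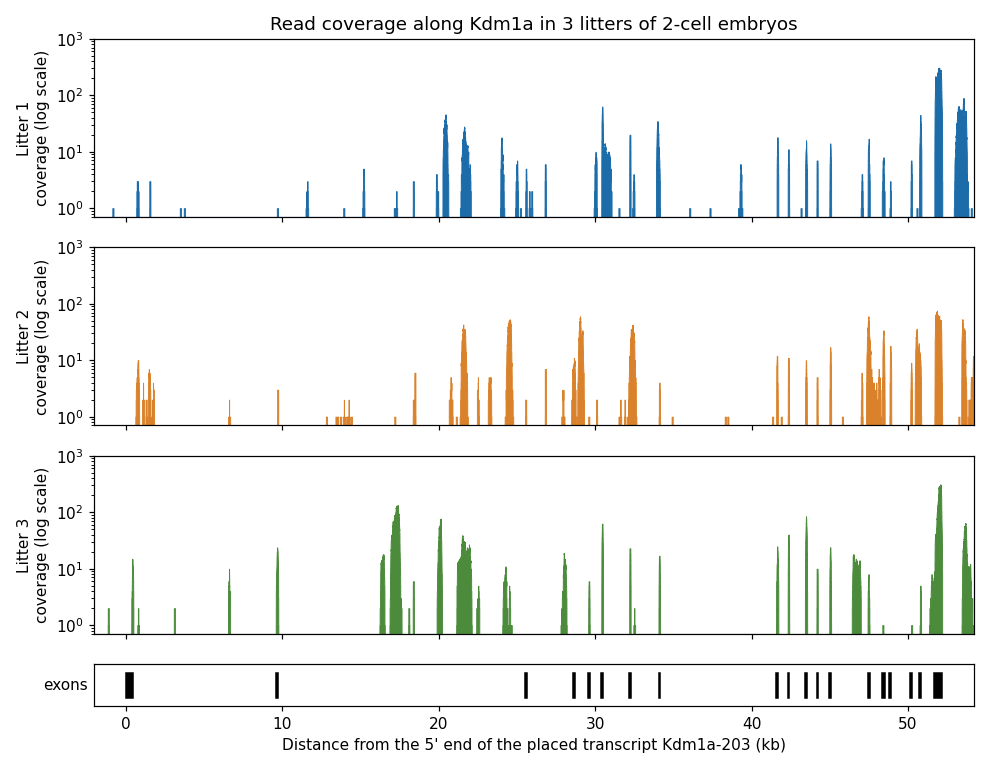
Read coverage per base (vertical axes, log scale) along Kdm1a in litters 1, 2 and 3, against distance from the 5′ end of the placed transcript (horizontal axis, kb), with its 19 exons as black boxes below. All 3 litters peak over the last exon, intron signal lies in separate clusters that differ between litters, and signal just right of the last exon lies beyond the 3′ end.

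The internal exons encode most of the amine oxidase domain. Exons 2 to 18 together held 193, 179 and 275 alignments in litters 1 to 3, and their density averaged 7.36 ± 0.854 RPKM per start position (SD, n = 3). Exon 19 averaged 58.1 ± 34.9 RPKM, so its SD was a far larger part of its mean. Of all 19 exons, 16 had an alignment in litter 1, 17 in litter 2 and 15 in litter 3, and 12 had one in every litter.

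Single exons were much less alike between litters than their sum. Exon 6 held 46, 0 and 52 alignments in litters 1 to 3, from 25 distinct starts in both litters that had any. Its mean level of 24.4 ± 21.2 RPKM was the highest of exons 2 to 18, and a count of 0 allows up to 2.57 RPKM in litter 2 by counting error alone. Exon 14 went the other way, with 13, 45 and 6 alignments. Exon 16 had 3, 17 and 0, and exon 15 had 9, 39 and 1. Exon 11 had 13, 9 and 79, and exon 18 had 45, 10 and 5. Litter 1 was thus high in exon 18, litter 2 in exons 14 to 16 and litter 3 in exon 11. The signal of litter 2 at exon 14 was not confined to the exon. There 54 further alignments crossed the exon's edge in litter 2, against 4 and 2 in litters 1 and 3. At exons 15 and 16, 1 alignment each crossed an edge in litter 2.

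Some exons did repeat. Exon 9 held 14, 12 and 22 alignments in litters 1 to 3, which is 6.13 ± 1.26 RPKM. Exon 13 held 10, 14 and 18, which is 9.52 ± 2.04 RPKM. Exon 12, the shortest at 74 bases, leaves room for only 3 start positions. It held 3, 2 and 2 alignments, from 2, 1 and 1 distinct starts. Its level did not exceed the limit for a count of 0 in any litter, so it cannot show whether its level repeats. Across the 19 exons the Pearson correlation of log2 level between litters 1 and 3 was 0.55, against 0.34 for litters 1 and 2 and 0.02 for litters 2 and 3. Without exon 19 these correlations were 0.49, 0.27 and -0.07. These exons share 3 libraries and few alignments each, so no p is given.

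**Figure D4:**
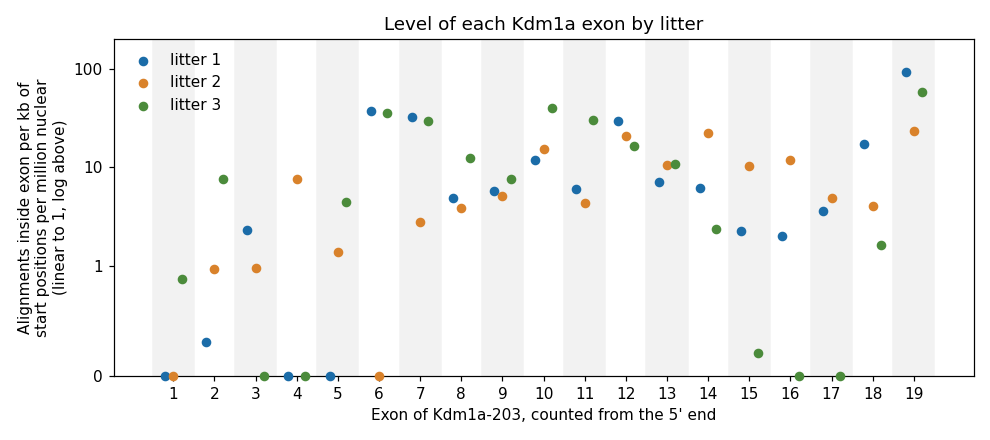
Level of each exon of Kdm1a-203 (vertical axis, alignments inside the exon per kb of start positions per 1000000 nuclear alignments, linear up to 1 and log above) by exon number from the 5′ end (horizontal axis), with a point per litter. Exon 19 is highest in litters 1 to 3 with 93.1, 23.3 and 57.9, and exon 6 has 0 in litter 2 only.

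Exon 1 had the lowest mean level of the 19 exons. This exon, which holds the start codon and is 492 bases long with a GC content of 79.5%, held 0 alignments in litters 1 and 2 and 15 in litter 3. With 0 counts its level was below 0.209 RPKM in litter 1 and below 0.220 RPKM in litter 2 by counting error alone, and it was 0.880 in litter 3. Exon 3 had the lowest mean among exons 2 to 18, with 5, 2 and 0 alignments. GC content of exons 2 to 18 ran from 37.8% to 55.8%, and exon level and GC had a Spearman correlation of -0.44 across these 17 exons, given as a description. The lowest GC belongs to exon 12. The part of base composition in the low level of exon 1 was not tested. The 60-base exon of Kdm1a-202 was touched by 0, 2 and 0 alignments, and since no whole alignment fits inside it, this does not measure its use.

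The rule for exons without an annotation, runs of at least 72 bases covered in all 3 litters, gave 15 blocks of 72 to 511 bases, 2222 bases in all. Of these, 11 overlapped a placed exon, each a different one, and 4 overlapped none. Some block edges lay close to exon edges. The place of the exons was chosen on the same coverage that gave the blocks, so overlap and edges do not test that place. The block over exon 10, from 136116239 to 136116329, was shifted by 1 base from the exon at both edges, and the block over exon 7 reached 4 bases beyond it on both sides. A block ends where any litter lacks coverage, so its edges need not be those of each litter. In litter 2 exon 7 had 1 alignment inside and 36 that crossed its edge. Litters 1 and 3 had 12 and 13 inside and 8 and 10 that crossed. The block over exon 15 covered only 72 of its 188 bases. Mean density over all blocks was 21.4, 9.24 and 15.6 RPKM in litters 1 to 3.

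The most covered block was the 3′ block, from 136106458 to 136106955, with 80.5, 19.9 and 49.5 RPKM of coverage-based density in litters 1 to 3. The least covered was a 76-base block from 136140218 to 136140293, with 1.16, 0.800 and 1.91 RPKM, which lies at the placed position of Gm12987, a processed pseudogene in intron 2. The 5′ block, from 136157806 to 136157898, had 0.913, 3.36 and 0.458 RPKM and lay in intron 1. The longest block, 511 bases from 136136769 to 136137279 in intron 2, had 5.03, 7.59 and 7.82 RPKM, and overlapped no exon of Kdm1a-203.

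The blocks nearer the 3′ end were covered more deeply than those nearer the 5′ end in all litters, when the summed block length was divided at its midpoint. The 3′ side had 38.7, 12.7 and 25.1 RPKM in litters 1 to 3, against 3.99, 5.74 and 6.01 RPKM on the 5′ side. The mean log2 ratio was 2.14 ± 1.06 (SD, n = 3), on log2(RPKM + 0.1), positive in 3 of 3 litters (exact permutation by sign flips, p = 0.25, the smallest possible). Without the 3′ block, which is most of exon 19, the 3′ side had 5.38 ± 0.759 RPKM and the 5′ side 5.41 ± 1.25 RPKM. The log2 ratio was then 0.01 ± 0.17, positive in 2 of 3 litters (exact permutation p = 1). A ratio near 0 on 3 litters does not show that the sides are alike. Exons 1 to 18 divided in the same way had log2 ratios of 1.05, 3.20 and 0.59 in litters 1 to 3, 3 of 3 positive (exact permutation p = 0.25). Exons 2 to 18, without the nearly empty exon 1, had -0.16, 2.06 and -0.73, of which 1 is positive (exact permutation p = 1). Over exons 2 to 18 the litters thus differed in direction.

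Introns were covered thinly and in patches. Alignments that touched no placed exon had a density of 0.267, 0.503 and 0.684 RPKM in litters 1 to 3, against 27.2, 9.27 and 19.1 RPKM inside exons. Exon density exceeded intron density by 102, 18.4 and 27.9 fold, at a place chosen for its exon coverage. The share of the transcript's alignments that lay in introns was 21.2%, 55.4% and 49.4%. Alignments that crossed an exon edge numbered 86, 131 and 75, at 0.989, 1.58 and 0.725 RPKM of their start positions.

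Blocks drawn from 2 litters were measured in the litter left out, which had no part in their choice. They numbered 24, 21 and 22 with litter 1, 2 or 3 left out. Only 15 blocks were covered in all 3 litters, so not every block was fully covered in the litter left out. Their density there was 13.8, 6.72 and 10.95 RPKM in litters 1 to 3, against 0.268, 0.470 and 0.648 RPKM between blocks. Each set includes the 3′ block, at 80.5, 19.9 and 49.5 RPKM, and the density without it was not computed. The log2 ratio was 4.23 ± 0.884 (SD, n = 3), higher in 3 of 3 litters, with p = 0.25 in an exact permutation test by sign flips.

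Intron density, taken over the whole gene, was above the sequence upstream and below the sequence downstream. Between blocks it was 0.455 ± 0.188 RPKM, against 0.0582 ± 0.0244 RPKM in the 50 kb past the 5′ end and 3.97 ± 0.323 RPKM in the 50 kb past the 3′ end, where the annotation has Luzp1. The ratio to the 5′ flank was 8.24 ± 3.59 fold. Single introns did not share this level. Their mean density ran from 0 in introns 11, 12, 15 and 16 to 1.92 RPKM in intron 4. Among the long ones it was 0.0703 RPKM in intron 1, 1.01 RPKM in intron 2 and 0.0203 RPKM in intron 8.

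The separate stretches of intron signal counted here numbered 54, of which 39 were covered in 1 litter, 9 in 2 litters and 6 in all 3. They leave out some intron alignments, among them all those of introns 7, 14, 17 and 18. The 5 stretches with the most alignments held 76.6% of the alignments in the 54 stretches, not of all intron alignments. The first, from 136141007 to 136141781 in intron 2, had 3, 1 and 651 alignments in litters 1 to 3. The second, from 136136522 to 136137542, contains the 511-base block and had 100, 127 and 244. The third, from 136133871 to 136134711, had 27, 177 and 28. A litter's intron level can therefore rest on 1 stretch. Without the first stretch the intron density was 0.270, 0.511 and 0.354 RPKM in litters 1 to 3, so litter 3 was no longer the highest.

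By intron, intron 2, which is 15760 bases long, held 277, 348 and 1166 alignments in litters 1 to 3. Intron 1, at 9101 bases, held 10, 41 and 14. Intron 4 held 0, 147 and 0. Introns 11, 12, 15 and 16 held none in any litter.

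The spread between litters of Kdm1a was within the range of windows of like depth. The interval's coefficient of variation was 20.8%, against a median of 27.6% and quartiles of 17.9% and 45.2% in the 311 windows of chromosome 4 whose mean alignments lay within 2 fold of the interval's. It stood at percentile 30.2 of those windows, and the interval is longer than they are. By distinct starts it stood at percentile 65.5, on the other side of the median window, so the place in that order depends on how alignments are counted. Without litter 2 the interval's coefficient of variation was 6.51%. The highest litter of Kdm1a exceeded the lowest by 1.52 fold. In 36.0% of the 311 windows of like depth the litters differed by over 2 fold. That share was 68.5% over all 2047 windows averaging 100 alignments or more, most of them shallower than the interval. The order of litters seen in Kdm1a (litter 3 highest, litter 2 lowest) occurred in 15.2% of the 2047 windows. That order rests on 1 intron stretch: without the stretch from 136141007 to 136141781 the interval had 1.16, 0.833 and 0.962 RPKM in litters 1 to 3, with litter 1 highest. Without exon 19 it had 0.401, 0.641 and 0.796 RPKM, with litter 1 lowest. Both regions were left out after seeing the data.

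**Figure D5:**
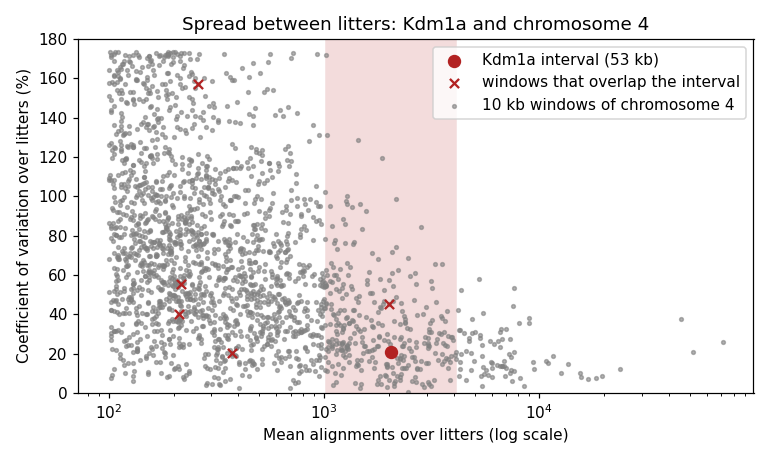
Coefficient of variation over 3 litters (vertical axis, %) against mean alignments (horizontal axis, log scale) for the Kdm1a interval (circle), overlapping windows averaging 100 alignments or more (crosses) and other 10 kb windows of chromosome 4 (grey points). The shaded band is within 2 fold of the interval's depth, where the interval has 20.8% and the median window 27.6%.

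Parts of the gene differed in their spread. Windows of the interval ran from 20.4% in the window that starts at 136130001 to 157% in the one that starts at 136140001, which held 18, 22 and 741 alignments in litters 1 to 3. Introns varied by 43.2% and exons 2 to 18 by 11.6%. Without the stretch from 136141007 to 136141781 introns varied by 32.4%. Litter 2 was lowest in the last exon. In the introns it was between the others, and it was highest there without that stretch. The litters thus differed in where their reads lay as well as in their number.

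Alignments that share a start with another of the same litter, counted beyond the first, were a smaller share in Kdm1a than in the matched windows. These windows were matched on number of alignments, and at 10 kb against 53001 bases they held more alignments per position than the interval. They made up 54.4%, 26.7% and 45.7% of the interval's alignments in litters 1 to 3, against 67.7%, 62.2% and 71.2% in the 311 matched windows of chromosome 4. Inside exon 19 they made up 71.9%, 35.6% and 68.1%, against 30.1%, 26.3% and 36.0% over exons 2 to 18. The part of depth per position in these shares was not tested.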

How the data were processed

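RNA of 3 litters of 2-cell embryos was amplified by SPIA, sheared as cDNA and sequenced, per the labels. The submitters' processing notes name Bowtie and mm9, while its version and settings stand as not given in the sources used here. What the authors deposited is coverage (signal): unscaled aligned reads per base, per the file headers. It split into alignments of 72 bases with 0 negative starts. Nuclear totals were 32431630 to 40474940 per litter. Amplified reads are not independent molecules, so the limits for a count of 0 (3 alignments) cover counting error only.

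Densities are RPKM, with 0.1 added before log2. Block densities divide summed coverage by 72. An annotation of mm9 was not used here. Exon lengths and spacings of Kdm1a-203 from GENCODE M21 (GRCm38) were placed by the coverage, and no coordinates were converted. This step was chosen after seeing the data and was not blind: the annotation had already been set beside the blocks at an offset between builds known from memory. A first score, the plain sum of distinct starts over all exons, was led by 1 long exon and chose covered sequence outside the gene. It was replaced by the log2 score, and exons 2 to 18 then set the final place. A comparison of start counts recurring elsewhere was tried and dropped, as too few starts qualified.

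The exact permutation test flips signs and is two-sided. Litters are separate collections per the labels. Blocks named by rule were the most and least covered and the 3′ and 5′ ones; other exons, introns and stretches, and all comparisons over placed exons, were chosen after seeing values. The gene and the lists were chosen with earlier results of these data known. The partners of LSD1, listed for use with an mm9 annotation, were not analysed here. Alternatives covered scaling, distinct starts, block and window rules, pseudocount, thresholds, regions and leaving out each litter. Scripts were tested on simulated data and ran with matplotlib 3.10.9, scipy 1.17.1, pandas 2.3.3 and numpy 2.4.6 under Python 3.11.15.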

Additional observations from a re-analysis of the deposited data

How the results depend on the processing

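Among the alternatives 0 values changed sign, but levels, counts, percentiles and coefficients of variation cannot be negative. Only the log2 ratios could change sign, as means over litters. In single litters the 3′ to 5′ ratio over exons 2 to 18 was -0.16, 2.06 and -0.73 in litters 1 to 3. The sign-flip test cannot pass 0.05 with 3 litters. The values below include those that moved by more than the spread, or by over 1.5 times for counts. The interval had 0.613 RPKM without exon 19. Block density was 26.0 RPKM at a coverage of at least 5 and 7.36 RPKM over exons 2 to 18. On the scale of distinct starts, the interval had 2.07 and the blocks 24.0. On that scale both the counts and the nuclear totals are of distinct starts in place of alignments. These densities are therefore not RPKM, and their difference from the RPKM values does not show a higher level. The percentile on chromosome 4 was 91.6 both among windows with an alignment and with 50 kb windows. Windows past the threshold numbered 867 at 0.5 RPKM, 366 at 2 RPKM and 938 at 1 on the scale of distinct starts. Blocks numbered 6 at a coverage of at least 5, 2 at a minimum of 2 alignment lengths, and 21 to 24 with a litter left out. The log2 ratio of blocks to introns was 3.43 with a pseudocount of 1. The coefficient of variation was 48.4% over placed exons, 11.6% over exons 2 to 18, and 6.51% (without litter 2) to 29.3% (without litter 1) with a litter left out. Its percentile was 37.3 among windows within 1.5 fold, 38.3 with median-of-ratios scaling and 65.5 by distinct starts. The cause was not tested. The log2 ratio of the 3′ to the 5′ side depended on the regions used: it was 5.11 between the end blocks, 3.47 over all placed exons, 1.61 without exon 19, 0.39 over exons 2 to 18 and 0.01 for blocks without the 3′ block. It was 1.27 by distinct starts and 1.59 to 2.65 with a litter left out. Values over placed exons, and without a stretch or exon, were added after seeing the data. No paired analysis was possible because there is 1 group. Depth limits single exons, which held 0 to 79 alignments outside exon 19.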
